A study of Homo sapiens with 9 samples.

Results

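The 10 genes described here belong to the BCL2 family of apoptosis regulators and were taken by symbol: BCL2, BCL2L1, MCL1, BAX, BAK1, BCL2L11, BBC3, PMAIP1, BID and BIK. All 10 were found, each on 1 of the 27548 rows of the expression table. Their RNA was measured by sequencing in MDA-MB-231, a long-established line of triple-negative breast cancer cells with mutant p53. There were 3 groups with 3 libraries each. TLX+siTLX cells overexpressed the orphan nuclear receptor TLX, the product of NR2E1, and were given an siRNA against TLX (libraries S7 to S9). TLX+siCTL cells overexpressed TLX and were given a universal negative control siRNA (S4 to S6), and CTL+siCTL were control cells given that control siRNA (S1 to S3). All cells were transfected for 48 h with the same lipid reagent. The sources used here do not say how TLX was overexpressed, whether a clone or a pool was used, or whether the 3 libraries of a group were separate cultures, so the p-values measure the spread between these libraries, which may be technical.

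Proteins of this family set whether the mitochondrial outer membrane is opened, the step that frees cytochrome c and starts the caspase cascade. BCL2, BCL2L1 (BCL-XL) and MCL1 hold the membrane closed. BAX and BAK1 are the effectors that form the pores. The BH3-only proteins BIM (BCL2L11), PUMA (BBC3), NOXA (PMAIP1), BID and BIK push towards opening, either by occupying the survival proteins or by activating the effectors. Family members are also controlled by protein turnover and location, which RNA does not show, and the values are gene totals that do not separate isoforms with opposite activity.

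The targeted gene followed the group labels. NR2E1 was at -2.61, -3.40 and -1.77 log2 CPM (counts scaled to library size, log2 scale) in TLX+siTLX, at 0.28, -0.84 and 0.23 in TLX+siCTL, and at -4.59, -4.28 and -4.50 in CTL+siCTL, so the 3 groups did not overlap and TLX+siTLX stayed above the control cells (log2 fold change 1.86 ± 0.47, SE, limma adjusted p = 0.0134). Libraries held an effective 73800000 to 91770000 reads, recovered from the steps between low values. NR2E1 was low even where overexpressed. Its values stood for 11.3, 5.3 and 23.4 rebuilt reads in TLX+siTLX, 109.1, 42.0 and 91.4 in TLX+siCTL, and 1.3, 2.0 and 1.4 in CTL+siCTL. The size of its differences is thus imprecise. By a chi-square statistic per gene on rebuilt reads, the libraries of TLX+siTLX differed more among themselves than those of the other groups. It was 24.6 to 59.3 in TLX+siTLX and at most 15.8 between any 2 libraries of TLX+siCTL or of CTL+siCTL. On the log2 scale the contrast was smaller. The SD of the log2 difference was 0.197 for S7 and S8, 0.250 for S7 and S9, and 0.216 for S8 and S9. For S5 and S6 of TLX+siCTL it was 0.202. The titles of the control samples also hold the name of the prostate line PC3, although their stated line is MDA-MB-231. CTNNA1, which PC-3 cells lack, was at 9.50 to 9.56 log2 CPM in CTL+siCTL. Of the prostate markers, KLK3 and KLK2 were at most -3.31 in all libraries, where the floor of the table is -5.33, TMPRSS2 lay between -0.71 and 0.46, and SLC45A3 was at 3.15 to 3.56. The MDA-MB-231 markers VIM, CD44, EGFR, CAV1 and MSN were at 6.99 log2 CPM or more in every library, while ESR1 and FOXA1 were at most -1.78. PGR reached 1.14 in 1 control library, and ERBB2 at 6.17 to 6.48 and GATA3 at 2.12 to 4.36 were not absent. Some of these markers moved with the groups, CAV1 with means of 8.97, 7.98 and 7.02 and GATA3 with 4.24, 3.30 and 2.37 in TLX+siTLX, TLX+siCTL and CTL+siCTL, and their part in the values of the family was not tested.

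BIK, BBC3, PMAIP1 and BCL2 carried the larger differences within the family, as the plot of members by library shows. In TLX-overexpressing cells BIK and PMAIP1 were lower and BCL2 and BCL2L1 higher than in control cells. After the siRNA against TLX, BIK and PMAIP1 were higher than in TLX+siCTL and did not pass the test against control cells. BCL2 did not pass the test against TLX+siCTL, and BBC3 and BAK1 fell below both other groups. BAX and BCL2L11 did not pass the test in any of the 3 comparisons. Each comparison was tested with limma on all 9 libraries, and p-values were adjusted over all 27548 rows by the Benjamini-Hochberg method, with 0.05 as the threshold. In bulk RNA, fewer cells with a transcript and less of it per cell cannot be told apart. The comparisons share samples: TLX+siCTL stands over CTL+siCTL in one and under TLX+siTLX in another, so a high or low TLX+siCTL library moves both, in opposite directions.

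**Figure D1:**
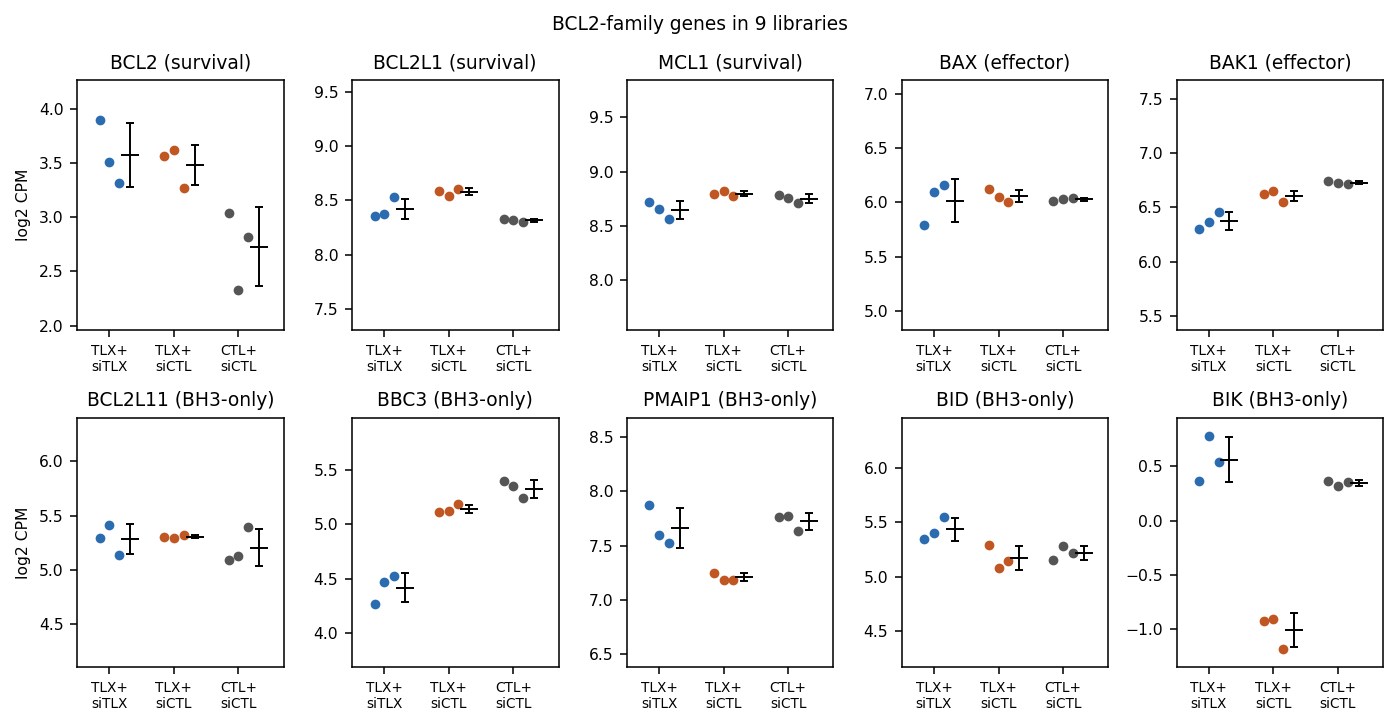
Log2 CPM of the 10 members (y axis) in the 3 groups (x axis), 1 point a library, with the group mean and SD (n = 3) as a bar beside the points; every panel spans the same height on its own range. BIK in TLX+siCTL lies between -1.18 and -0.91 against 0.32 to 0.37 in CTL+siCTL, and BBC3 in TLX+siTLX lies between 4.26 and 4.52, below both other groups.

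The upstream sequences of PMAIP1, BBC3 and BCL2L1 are given because these members moved in different ways across the 3 groups. They come from RefSeq (GRCh38.p14), run 5′ to 3′ on the strand of the gene, and stop before the first exon that GENCODE 29 annotates. Capitals mark matches to any of 4 motifs on either strand: the TLX half-site AAGTCA, the cyclic AMP response element half-site TGACGT, the E-box CACGTG and the GC box GGGCGG.
PMAIP1 (chr18:59899746-59899947, plus strand): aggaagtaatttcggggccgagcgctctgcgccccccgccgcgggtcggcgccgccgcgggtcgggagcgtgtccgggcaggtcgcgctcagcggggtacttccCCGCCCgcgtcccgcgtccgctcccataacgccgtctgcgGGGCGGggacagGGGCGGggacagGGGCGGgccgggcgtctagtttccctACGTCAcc
BBC3 (chr19:47232767-47232917, minus strand): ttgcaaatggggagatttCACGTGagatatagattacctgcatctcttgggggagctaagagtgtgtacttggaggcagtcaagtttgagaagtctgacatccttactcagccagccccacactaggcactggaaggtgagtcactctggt
BCL2L1 (chr20:31723990-31724213, minus strand): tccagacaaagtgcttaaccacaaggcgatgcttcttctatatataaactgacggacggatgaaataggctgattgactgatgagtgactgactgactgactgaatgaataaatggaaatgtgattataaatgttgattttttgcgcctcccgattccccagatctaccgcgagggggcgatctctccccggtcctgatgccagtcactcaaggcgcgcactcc
In PMAIP1 the half-site of the cyclic AMP response element lies 56 bases before the RefSeq start, downstream of 4 GC boxes, and in BBC3 the only match is an E-box 232 bases before the start. The BCL2L1 window holds none of the 4. RefSeq windows of 250 bases upstream were found for 8 members, with 13 windows in all (BIK and MCL1 had no entry). Of these 13 windows 0 held AAGTCA, 1 held TGACGT, 4 held CACGTG and 8 held GGGCGG. Among all 35116 windows of this length the shares were 10.9%, 7.1%, 6.34% and 42.6% in the same order. The windows of 1 gene overlap, and a match is a string of letters, not a bound site.

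Among the survival genes, BCL2 (ENSG00000171791, chromosome 18, 63123346 to 63320128) rose with TLX overexpression. Its log2 CPM was 3.90, 3.50 and 3.31 in TLX+siTLX, 3.56, 3.62 and 3.27 in TLX+siCTL, and 3.04, 2.33 and 2.82 in CTL+siCTL. Both TLX-overexpressing groups lay wholly above the control cells and overlapped each other. TLX+siCTL over CTL+siCTL gave a log2 fold change of 0.75 ± 0.20 (SE, limma adjusted p = 0.0219), a 1.69-fold level. TLX+siTLX over CTL+siCTL gave 0.84 ± 0.20 (adjusted p = 0.011), a 1.80-fold level. TLX+siTLX over TLX+siCTL gave 0.09, with a 95% interval from -0.38 to 0.56 that leaves room for a change of either sign (adjusted p = 0.834). The BCL2 values spread more than those of the other members, with S2 the lowest control. The first call was lost without S2 (0.55, adjusted p = 0.0807), S3 (0.0642), S4 (0.096), S5 (0.1) or S8 (0.0501). S8 is outside that comparison, and without it the log2 fold change stayed at 0.75. The second call was lost without S7 (0.68, adjusted p = 0.0529). With only the 2 groups compared, both calls were lost (adjusted p = 0.0548 and 0.0586). BCL2 had 380 to 1208 rebuilt reads a library, although per length it was among the lowest members, as given below.

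BCL2L1 (ENSG00000171552, chromosome 20, 31664452 to 31723989), the gene of BCL-XL, moved less but with tighter replicates. Its log2 CPM was 8.36, 8.38 and 8.53 in TLX+siTLX, 8.59, 8.54 and 8.61 in TLX+siCTL, and 8.33, 8.32 and 8.31 in CTL+siCTL. The 3 groups did not overlap, with TLX+siCTL highest. It rose in TLX+siCTL over CTL+siCTL (0.26 ± 0.05, SE, limma adjusted p = 0.00285), and this call held in all 16 alternatives run (adjusted p from 0.000205 to 0.0168). It fell in TLX+siTLX over TLX+siCTL by 0.16 ± 0.05 (adjusted p = 0.0419), a call that was lost when any 1 of S1 to S8 was left out (adjusted p from 0.0662 to 0.13). TLX+siTLX over CTL+siCTL did not pass (0.10, 95% interval -0.01 to 0.21, adjusted p = 0.143).

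MCL1 (ENSG00000143384, chromosome 1, 150574551 to 150579738), a survival protein with a short half-life, had the highest log2 CPM of the 10 members and the narrowest range of group means apart from BAX and BCL2L11. It was at 8.72, 8.65 and 8.56 in TLX+siTLX, 8.80, 8.82 and 8.78 in TLX+siCTL, and 8.79, 8.76 and 8.71 in CTL+siCTL. TLX+siTLX lay below TLX+siCTL without overlap and overlapped the control cells. MCL1 fell in TLX+siTLX over TLX+siCTL by 0.15 ± 0.05 (SE, limma adjusted p = 0.0435), to 0.899 of the TLX+siCTL level. That call was lost without any 1 of S1 to S6, S8 or S9 (adjusted p from 0.0552 to 0.128). TLX+siCTL over CTL+siCTL gave 0.05 (95% interval -0.06 to 0.15, adjusted p = 0.531) and TLX+siTLX over CTL+siCTL -0.11 (adjusted p = 0.115). The latter was called without S7 (-0.15, adjusted p = 0.0278) and with library weights (adjusted p = 0.0117).

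Of the effectors, BAX did not pass any test and BAK1 fell after the siRNA. BAX (ENSG00000087088, chromosome 19, 48954815 to 48961798) was at 5.79, 6.09 and 6.16 log2 CPM in TLX+siTLX, 6.12, 6.05 and 6.01 in TLX+siCTL, and 6.01, 6.03 and 6.04 in CTL+siCTL. All 3 groups overlapped, S7 was the lowest library, and the group means spanned 0.04. The 95% intervals of the BAX log2 fold change were -0.16 to 0.23 for TLX+siCTL over CTL+siCTL, -0.24 to 0.15 for TLX+siTLX over TLX+siCTL and -0.21 to 0.18 for TLX+siTLX over CTL+siCTL (limma adjusted p from 0.796 to 0.967).

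BAK1 (ENSG00000030110, chromosome 6, 33572547 to 33580293) was lowest after the siRNA. Its log2 CPM was 6.30, 6.37 and 6.46 in TLX+siTLX, 6.62, 6.65 and 6.55 in TLX+siCTL, and 6.74, 6.73 and 6.71 in CTL+siCTL. The 3 groups did not overlap and stood in that order, low to high. BAK1 fell in TLX+siTLX over TLX+siCTL by 0.23 ± 0.05 (SE, limma adjusted p = 0.0059) and in TLX+siTLX over CTL+siCTL by 0.35 ± 0.05 (adjusted p = 0.00029), to 0.784 of the control level, and both calls held in all 16 alternatives. TLX+siCTL over CTL+siCTL gave -0.12 ± 0.05 and did not pass (adjusted p = 0.0824), but it was called without S7 (adjusted p = 0.0431) or S9 (0.0265). That fall was also called with only the 2 groups compared (0.0281) and with library weights (0.016). GGNBP1, which overlaps BAK1 on the other strand, had a mean log2 CPM of -2.72, and the strand setting of the counting is not known. The processed pseudogenes BAK1P1 and BAK1P2, which can share reads with BAK1, had mean log2 CPM of -3.73 and -4.72, far below it.

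Of the BH3-only genes, BIK (ENSG00000100290, chromosome 22, 43110748 to 43129712), whose protein sits at the endoplasmic reticulum, changed by the largest factor of the 10 members. Its log2 CPM was 0.37, 0.78 and 0.54 in TLX+siTLX, -0.93, -0.91 and -1.18 in TLX+siCTL, and 0.37, 0.32 and 0.36 in CTL+siCTL. These stood for about 102.9, 129.9 and 123.9 rebuilt reads in TLX+siTLX, 46.0, 40.0 and 33.0 in TLX+siCTL, and 101.9, 92.9 and 92.9 in CTL+siCTL. TLX+siCTL lay wholly below both other groups. BIK fell in TLX+siCTL over CTL+siCTL by 1.35 ± 0.18 (SE, limma adjusted p = 0.000419), to 0.391 of the control level, a change larger in size than that of 96.5% of the 12564 rows whose mean log2 CPM was 1 or more. It rose in TLX+siTLX over TLX+siCTL by 1.57 ± 0.18 (adjusted p = 0.000314), which was 2.97-fold and larger in size than 99.1% of those rows. BIK itself, with a mean log2 CPM of -0.03, is not among those rows. Both shares therefore set a low gene against rows of a higher level. TLX+siTLX over CTL+siCTL did not pass (0.22, 95% interval -0.19 to 0.62, adjusted p = 0.434). Its libraries nevertheless lay above all control libraries, S7 by very little over S1, and BIK was called higher there with library weights (adjusted p = 0.0465). The deposited values hold a prior count, so the folds of this low gene are understated, and the 2 called changes held in all 15 alternatives that could be run.

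PMAIP1 (ENSG00000141682, chromosome 18, 59899948 to 59904306), the gene of NOXA, an antagonist of MCL1, was also lowest in TLX+siCTL, as BIK was, at a far higher level. Its log2 CPM was 7.87, 7.60 and 7.52 in TLX+siTLX, 7.25, 7.19 and 7.19 in TLX+siCTL, and 7.77, 7.78 and 7.64 in CTL+siCTL. TLX+siCTL again lay below both other groups, which overlapped each other. PMAIP1 fell in TLX+siCTL over CTL+siCTL by 0.52 ± 0.08 (SE, limma adjusted p = 0.00146), to 0.698 of the control level. It rose in TLX+siTLX over TLX+siCTL by 0.46 ± 0.08 (adjusted p = 0.00432), or 1.37-fold, and both calls held in all 16 alternatives. TLX+siTLX over CTL+siCTL gave -0.06 (95% interval -0.25 to 0.13, adjusted p = 0.637) and did not pass in 15 of the 16 alternatives either. The exception was the fit without S7, the highest library of its group, where PMAIP1 was lower in TLX+siTLX (-0.17, adjusted p = 0.0483).

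BBC3 (ENSG00000105327, chromosome 19, 47220822 to 47232766) encodes PUMA, a BH3-only protein that p53 induces, and was lowest after the siRNA. Its log2 CPM was 4.26, 4.47 and 4.52 in TLX+siTLX, 5.11, 5.13 and 5.18 in TLX+siCTL, and 5.40, 5.35 and 5.24 in CTL+siCTL. The groups did not overlap, and the gap between TLX+siTLX and the others was several times the spread within a group. BBC3 fell in TLX+siTLX over TLX+siCTL by 0.72 ± 0.07 (SE, limma adjusted p = 0.000147), to 0.606 of the TLX+siCTL level, and in TLX+siTLX over CTL+siCTL by 0.91 ± 0.07 (adjusted p = 1.36e-05), to 0.532 of the control level. Both calls held in all 16 alternatives, with log2 fold changes from -0.77 to -0.65 and from -0.96 to -0.84. TLX+siCTL over CTL+siCTL gave -0.19 ± 0.07 and did not pass (adjusted p = 0.0826), though it was called without S7 (adjusted p = 0.0236). That fall was also called with only rows whose mean log2 CPM reached 1 (0.0419), with only the 2 groups compared (0.0407) and with library weights (0.0134). BBC3 and BAK1 thus shared an order of groups that BIK and PMAIP1 did not have.

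BID (ENSG00000015475, chromosome 22, 17734138 to 17774770) links death receptors to mitochondria once caspase 8 has cut it. It was at 5.35, 5.40 and 5.55 log2 CPM in TLX+siTLX, 5.29, 5.08 and 5.15 in TLX+siCTL, and 5.16, 5.29 and 5.22 in CTL+siCTL, so TLX+siTLX lay above both other groups, by little over S4 and S2. It rose in TLX+siTLX over TLX+siCTL (0.26 ± 0.07, SE, limma adjusted p = 0.0272) and over CTL+siCTL (0.21 ± 0.07, adjusted p = 0.045). The first call was lost without S3, S5, S6, S8 or S9 (adjusted p from 0.056 to 0.109) and the second without S1, S2, S3, S5, S6, S8 or S9 (from 0.0521 to 0.162). TLX+siCTL over CTL+siCTL did not pass (-0.05, adjusted p = 0.687).

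BCL2L11 (ENSG00000153094, chromosome 2, 111119378 to 111168447), the gene of BIM, was at 5.29, 5.42 and 5.14 log2 CPM in TLX+siTLX, 5.30, 5.29 and 5.33 in TLX+siCTL, and 5.09, 5.13 and 5.40 in CTL+siCTL. The 3 groups overlapped, with TLX+siCTL inside the range of each of the others. The 95% intervals of its log2 fold change were -0.11 to 0.31 for TLX+siCTL over CTL+siCTL, -0.23 to 0.18 for TLX+siTLX over TLX+siCTL and -0.13 to 0.29 for TLX+siTLX over CTL+siCTL (limma adjusted p from 0.468 to 0.924). With library weights alone among the alternatives, BCL2L11 was called higher in TLX+siTLX over CTL+siCTL (adjusted p = 0.0219).

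**Figure D2:**
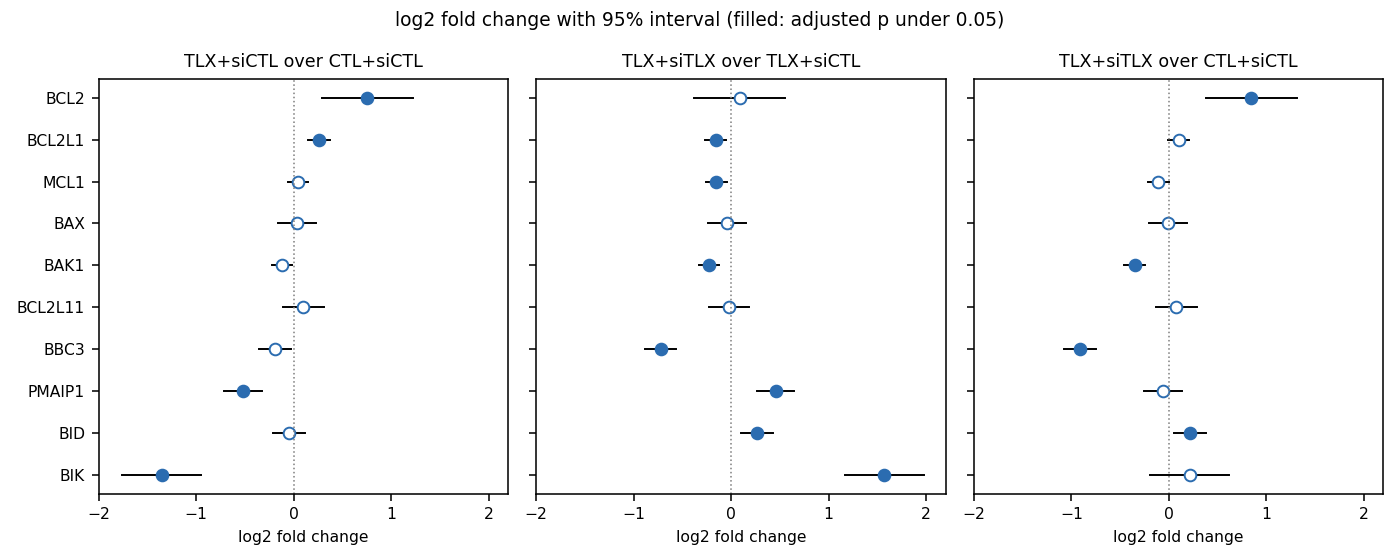
Log2 fold change (x axis) of each member (y axis) with its 95% interval from the moderated fit, in the 3 comparisons; filled points have an adjusted p under 0.05. BIK moves by -1.35 and then 1.57, BBC3 by -0.72 after the siRNA, and the BAX intervals lie around 0 in all 3 panels.

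Counted over the family, 2 members rose and 2 fell in TLX+siCTL over CTL+siCTL, 3 rose and 4 fell in TLX+siTLX over TLX+siCTL, and 2 rose and 2 fell in TLX+siTLX over CTL+siCTL. Many genes changed in these cells. Of all rows, in either direction, 30.1%, 23.7% and 34.6% were called in the same order of comparisons, and of the 12564 rows whose mean log2 CPM was 1 or more, which 9 of the 10 members belong to, 56.6%, 45.8% and 63.6%. Split by direction among the latter rows, 29.3% rose and 27.4% fell in TLX+siCTL over CTL+siCTL, 23.8% rose and 22.0% fell in TLX+siTLX over TLX+siCTL, and 32.4% rose and 31.2% fell in TLX+siTLX over CTL+siCTL. Against these shares, 4 of 10 is not a high count in the first and last comparison. The 7 of 10 in the middle one includes the BCL2L1, MCL1 and BID calls, which lay near the threshold (limma adjusted p = 0.0419, 0.0435 and 0.0272). Each of these calls was lost with any of several single libraries left out, among them CTL+siCTL libraries that are outside that comparison. The median size of the log2 fold change, without its sign, was 0.15, 0.20 and 0.16 for the members and 0.27, 0.21 and 0.32 for the rows with a mean of at least 1. The signed medians were -0.01, -0.03 and 0.03 for the members and 0.01, -0.00 and 0.00 for those rows. In the authors' deposited table, 4, 7 and 3 of the members had a false discovery rate under 0.05. The member called in the fit of all libraries but not there was BID in TLX+siTLX over CTL+siCTL, with a false discovery rate of 0.0505. In the authors' deposited table BIK has signed fold changes of -2.61 in TLX+siCTL over CTL+siCTL, 3.03 in TLX+siTLX over TLX+siCTL and 1.16 in TLX+siTLX over CTL+siCTL.

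Levels of different members can be compared only per length, and only roughly, since the transcripts that made up each gene total are not known. With the median length of the coding transcripts in GENCODE 29, the 4 highest in each group were BCL2L1, MCL1, PMAIP1 and BAX. BCL2L1 was at 133.2, 148.5 and 123.9 CPM per kb in TLX+siTLX, TLX+siCTL and CTL+siCTL. MCL1 was at 110.6, 122.8 and 119.0 and PMAIP1 at 127.1, 92.1 and 132.0 CPM per kb. BCL2 and BIK were the 2 lowest in each group also with the longest or the shortest transcript of each gene. BCL2 was at 2.40, 2.24 and 1.34 and BIK at 1.53, 0.50 and 1.31 CPM per kb. The order among the others depends on the length used, most for BCL2L11, whose coding transcripts run from 0.243 to 5.23 kb.

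A survival gene can be set against a killer gene within a library, as a difference of log2 CPM in which length and library size cancel between groups. The 5 pairs were chosen after the values were seen and are given without a test. Relative to the control mean, BCL2 minus BBC3 stood at 2.23, 1.64 and 1.40 in TLX+siTLX, at 1.05, 1.09 and 0.69 in TLX+siCTL, and at 0.24, -0.42 and 0.18 in CTL+siCTL. The 3 groups did not overlap in this difference, with TLX+siTLX highest. BCL2L1 minus BBC3 had the same order, with means of 1.01 ± 0.09 in TLX+siTLX and 0.45 ± 0.03 in TLX+siCTL (SD, n = 3). MCL1 minus PMAIP1, a survival protein and its selective antagonist, stood at -0.05 in TLX+siTLX and 0.56 in TLX+siCTL relative to control cells. BCL2 minus BAX was 0.86 in TLX+siTLX and 0.72 in TLX+siCTL above control cells, and S9 in TLX+siTLX (0.46) came close to S1 among the control cells (0.33).

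**Figure D3:**
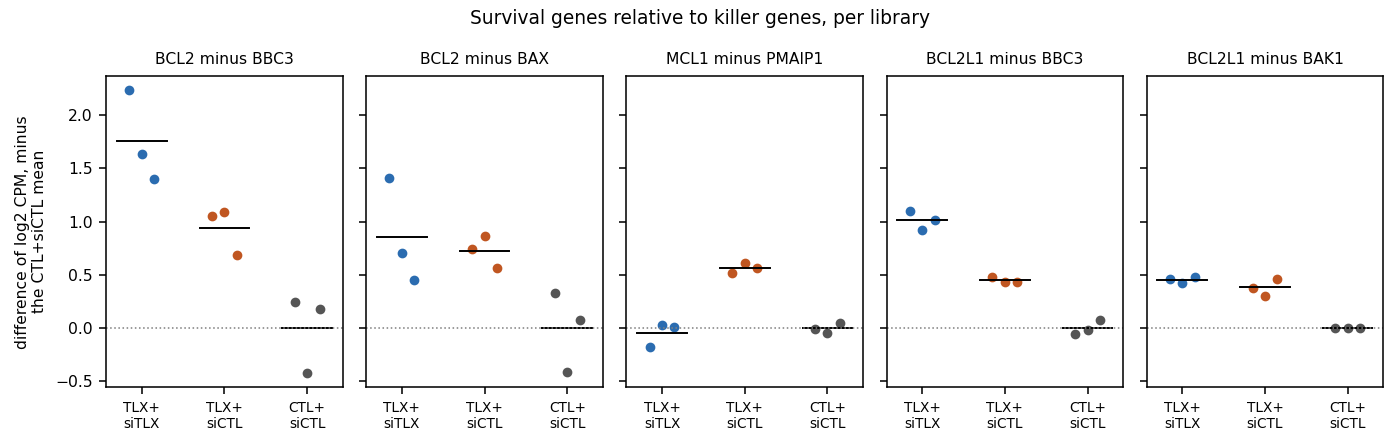
Difference of log2 CPM between a survival gene and a killer gene in each library, minus its mean in CTL+siCTL (y axis), for 5 pairs (panels) in the 3 groups (x axis); points are libraries and lines are group means. BCL2L1 minus BBC3 has means of 1.01 in TLX+siTLX and 0.45 in TLX+siCTL, and MCL1 minus PMAIP1 is raised in TLX+siCTL, by 0.56.

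Other genes of the same pathway were taken from 7 lists with 46 genes, all of them in the table. Of these 46, 18 rose and 13 fell in TLX+siCTL over CTL+siCTL, 12 rose and 14 fell in TLX+siTLX over TLX+siCTL, and 17 rose and 12 fell in TLX+siTLX over CTL+siCTL. Of the 46, 42 had a mean log2 CPM of 1 or more. Of all rows of that level, 56.6%, 45.8% and 63.6% were called in either direction, in the same order of comparisons. The counts of the 46 genes and of each list below stand beside these high shares and are not read as a trait of the pathway. The median log2 fold changes of the 46 genes were 0.07, -0.12 and -0.03. Both directions were thus present in each comparison, and the lists are described one by one.

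Among the other survival proteins of the family, BCL2L2 (BCL-W) fell in TLX+siTLX by 0.65 ± 0.10 (SE, limma adjusted p = 0.00139) over TLX+siCTL and by 0.50 ± 0.10 over CTL+siCTL (adjusted p = 0.00306). BCL2A1 was at mean log2 CPM of -4.91 in TLX+siTLX and -4.43 in TLX+siCTL, both close to the floor, and at -1.93 in CTL+siCTL, and it is named after its values were seen. It fell in both TLX-overexpressing groups relative to control cells (adjusted p = 0.000514 for TLX+siTLX and 0.00181 for TLX+siCTL). BCL2L10 passed in none of the 3 comparisons. Of the 9 other killers and BH3-like genes, 3 rose and 4 fell in TLX+siCTL over CTL+siCTL, 3 rose and 1 fell in TLX+siTLX over TLX+siCTL, and 2 rose and 2 fell in TLX+siTLX over CTL+siCTL. BNIP3, a mitophagy receptor with a BH3-like stretch, was at 7.47, 6.67 and 6.31 mean log2 CPM in TLX+siTLX, TLX+siCTL and CTL+siCTL, and its rise in TLX+siTLX over CTL+siCTL was 1.16 ± 0.06 (adjusted p = 1.15e-06). Its relative BNIP3L rose by 0.43 ± 0.05 after the siRNA (adjusted p = 0.00023). BOK, a BAX-like effector, fell by 0.44 ± 0.06 in TLX+siCTL over CTL+siCTL (adjusted p = 0.000642), where BAD, a BH3-only protein controlled by phosphorylation, rose by 0.41 ± 0.08 (adjusted p = 0.00343).

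Downstream of the mitochondria, of 10 genes of the apoptosome, the caspases and released factors 3 rose and 4 fell in TLX+siCTL over CTL+siCTL, 3 rose and 2 fell in TLX+siTLX over TLX+siCTL, and 4 rose and 3 fell in TLX+siTLX over CTL+siCTL. Cytochrome c (CYCS) rose by 0.48 ± 0.07 (SE, limma adjusted p = 0.000512) in TLX+siCTL over CTL+siCTL, as did the apoptosis-inducing factor AIFM1 (0.48 ± 0.06) and the nuclease ENDOG (0.51 ± 0.10). The executioner caspase CASP6 fell by 0.58 ± 0.06 after the siRNA (adjusted p = 0.000288), and DIABLO (SMAC), which blocks inhibitor of apoptosis proteins, was lower by 0.50 ± 0.07 in TLX+siTLX over CTL+siCTL (adjusted p = 0.00048). Of 5 inhibitor of apoptosis genes, 1 rose in each of the 3 comparisons, and this was BIRC5 (survivin), which is also a mitotic protein. BIRC5 was at 5.08, 3.84 and 2.37 mean log2 CPM in TLX+siTLX, TLX+siCTL and CTL+siCTL. BIRC3 (cIAP2) fell in TLX+siCTL over CTL+siCTL by 0.49 ± 0.07 (adjusted p = 0.000488).

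Of 6 genes of BID activation and mitochondrial partners, 4 rose and 0 fell in TLX+siCTL over CTL+siCTL, 2 rose and 3 fell in TLX+siTLX over TLX+siCTL, and 5 rose and 1 fell in TLX+siTLX over CTL+siCTL. CASP2, a caspase that can cut BID, rose by 1.05 ± 0.04 in TLX+siCTL over CTL+siCTL (SE, limma adjusted p = 8.5e-07). CASP8, the main protease of BID, rose by 0.34 ± 0.08 (adjusted p = 0.0102) in TLX+siTLX over TLX+siCTL, where BID also rose, while CASP2 fell there by 0.14 ± 0.04 (adjusted p = 0.0396). MTCH2, a mitochondrial receptor of cut BID, fell there by 0.34 ± 0.05 (adjusted p = 0.00108), a value that is uncertain because its symbol is on 2 rows. VDAC2, a channel that binds BAK1, fell there by 0.33 ± 0.04 (adjusted p = 0.000702), where BAK1 also fell, while the related channel VDAC1 rose by 0.27 ± 0.05 (adjusted p = 0.007). Of 5 genes of MCL1 turnover, 2 rose and 0 fell in TLX+siCTL over CTL+siCTL, 0 rose and 4 fell in TLX+siTLX over TLX+siCTL, and 1 rose and 0 fell in TLX+siTLX over CTL+siCTL. The deubiquitinase USP9X, which stabilises MCL1, rose by 0.60 ± 0.07 in TLX+siCTL over CTL+siCTL (adjusted p = 0.000287) and fell by 0.24 ± 0.07 in TLX+siTLX over TLX+siCTL (adjusted p = 0.0464). The ubiquitin ligase HUWE1 likewise rose by 0.23 ± 0.07 in TLX+siCTL over CTL+siCTL (adjusted p = 0.0318). HUWE1 and the ligase genes BTRC and MARCHF5 each fell by 0.27 after the siRNA (adjusted p from 0.0095 to 0.0214).

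Of 8 transcription factors known to act on BH3-only genes, 5 rose and 3 fell in TLX+siCTL over CTL+siCTL, 3 rose and 3 fell in TLX+siTLX over TLX+siCTL, and 4 rose and 3 fell in TLX+siTLX over CTL+siCTL. DDIT3 (CHOP), a stress factor known to induce BBC3 and BCL2L11, was at 5.19, 6.45 and 7.79 mean log2 CPM in TLX+siTLX, TLX+siCTL and CTL+siCTL. It fell by 1.34 ± 0.07 in TLX+siCTL over CTL+siCTL (SE, limma adjusted p = 3.26e-06) and by 1.26 ± 0.07 in TLX+siTLX over TLX+siCTL (adjusted p = 1.06e-05). E2F1 went the other way, at 5.82, 5.19 and 3.54 in the same order of groups, and TP73 was at 1.89, 1.17 and 0.15. The part of any of these factors in the BBC3, PMAIP1 or BIK values was not tested.

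**Figure D4:**
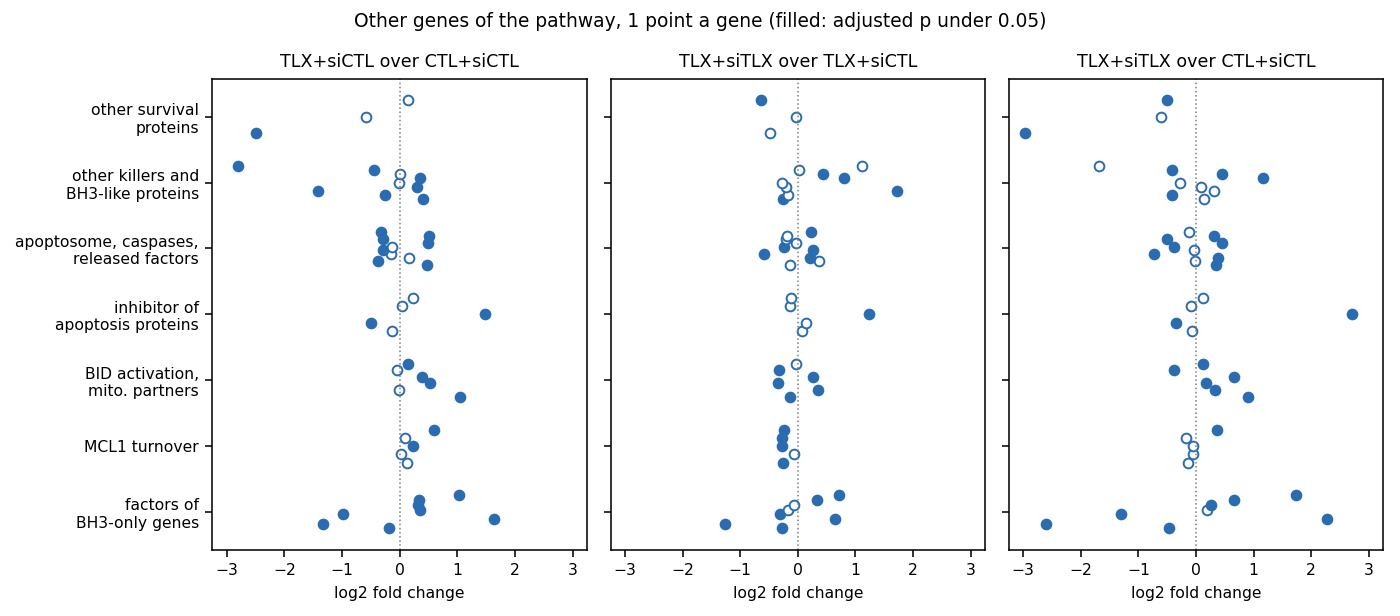
Log2 fold change (x axis) of the 46 other genes of the pathway by list (y axis), 1 point a gene, in the 3 comparisons; filled points have an adjusted p under 0.05. The point far right in the inhibitor of apoptosis list is BIRC5, at 2.71 in TLX+siTLX over CTL+siCTL, and the point far left in the list of transcription factors there is DDIT3, at -2.60.

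BBC3 and BCL2 had the widest range of group means among the 9 members whose mean log2 CPM was 1 or more, and the rows most like them over the 9 libraries were sought among 11299 others of that level with a symbol on 1 row. For BBC3 these were SEC16A, a coat protein scaffold of endoplasmic reticulum exit sites (Pearson r = 0.995), PHGDH, the first enzyme of serine synthesis (0.993), and C1orf43 (0.992). PHGDH was at 1.70, 1.90 and 2.17 in TLX+siTLX, 2.85, 2.79 and 2.92 in TLX+siCTL, and 3.21, 3.27 and 2.98 in CTL+siCTL. For BCL2 they were the nuclear export receptor XPO1 (0.978), the Hedgehog receptor PTCH1 (0.970) and NIPSNAP2 (0.960). PTCH1 shared with BCL2 the low value of S2, at 3.57 against 4.19 in S1 and 3.92 in S3. The libraries fall into 3 groups, so these r values mostly describe group means and carry no test.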

How the data were processed

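The 9 libraries, 3 for each of 3 groups of MDA-MB-231 cells, came from a strand-specific TruSeq kit for mRNA, per the labels. The authors deposited log2 CPM values for 27548 rows, and a table with a p-value and a false discovery rate for each row and comparison. The authors deposited there also a signed fold change, treated here as a score because it is negative for falls. The submitters' processing notes name kallisto 0.44.0, edgeR, limma and GRCh38 without their roles. The sources used here give neither the test behind the deposited p-values nor the strand setting. Both tables list the same symbols in the same order, so their rows were joined by position and Ensembl identifiers were taken from the table of comparisons. Columns are named by group and numbered 1 to 9, numbers that no label holds, hence the names S1 to S9. All columns were mapped.

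Depth was read from the values: the lowest log2 CPM was -5.33 in all libraries, and with a prior count of 2 the steps between low values give the effective sizes. Of the values under 50 reads, 29.9% to 31.5% lay within 0.01 of a whole read, so the rebuilt reads are estimates and entered no test. They cover counting error only. The deposited log2 CPM values were tested with limma 3.58.1 (R 4.3.3), with a mean per group, an intensity trend, two-sided p-values, no filter on low rows and Benjamini-Hochberg adjustment over all rows. Fold changes are on that scale, which understates changes of low rows. The same fit was tested on simulated data. Alternatives were log2(CPM + 1), centred medians, quantile normalization, only rows whose mean log2 CPM reached 1, only the 2 groups compared, no intensity trend, library weights, and each library left out in turn. Named genes were all 10 members, up to 3 called rows of each list whose mean log2 CPM reached 1, the 3 rows most like each of 2 members, and NR2E1. Members and lists were chosen with earlier results of these data known. Positions come from GENCODE 29 on GRCh38 and upstream sequences from RefSeq. Some marker genes of cell identity are not reported here.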

Additional observations from a re-analysis of the deposited data

How the results depend on the processing

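Of the 30 log2 fold changes of members, 18 kept their side of the threshold in all alternatives run, which were 16 for each member and 15 for BIK, whose mean lies under 1. No called value changed sign. The counts of members depended on calls near the threshold. With limma on only the 2 groups compared, 1 member rose and 4 fell in TLX+siCTL over CTL+siCTL, 2 fell in TLX+siTLX over TLX+siCTL, and 0 rose in TLX+siTLX over CTL+siCTL, where 2 rose at an unadjusted p under 0.05 and 1 rose in the authors' deposited table. Without an intensity trend 2 fell in TLX+siTLX over TLX+siCTL and 1 rose in TLX+siTLX over CTL+siCTL, as 1 did on the log2(CPM + 1) scale and with library medians centred. With library weights 4 fell in TLX+siCTL over CTL+siCTL, 4 rose in TLX+siTLX over CTL+siCTL, and 9836 rows were called in TLX+siTLX over TLX+siCTL, against 6518. Library weights were 0.382 for S7, 4.66 for S8 and 0.269 for S9, so values with them lean on S8 in TLX+siTLX. The cause of these shifts was not tested. With each library left out, 1 to 2 members rose and 2 to 4 fell in TLX+siCTL over CTL+siCTL, 2 to 3 rose and 2 to 3 fell in TLX+siTLX over TLX+siCTL, and 1 to 2 rose and 2 to 4 fell in TLX+siTLX over CTL+siCTL. On the log2(CPM + 1) scale the BIK changes were -0.61 and 0.74, since the added 1 is large beside its CPM. No paired analysis was possible because the columns carry none of the replicate numbers in the labels. Of the members BIK had the fewest rebuilt reads, with 46.0, 40.0 and 33.0 in TLX+siCTL (S4 to S6), so the size of its changes is imprecise.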

Other observations

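Beyond the named members, HRK and BCL2L14, both chosen after their values were seen, had low levels and wide differences. HRK, a BH3-only gene, had a mean log2 CPM of -1.50 in TLX+siTLX, -2.62 in TLX+siCTL and 0.18 in CTL+siCTL. It fell in TLX+siCTL over CTL+siCTL (limma log2 fold change -2.80, adjusted p = 0.00687), while TLX+siTLX over TLX+siCTL did not pass (1.12, adjusted p = 0.248). BCL2L14 was at -3.41, -5.14 and -3.72 in the same order of groups. It fell by 1.41 in TLX+siCTL over CTL+siCTL (adjusted p = 0.000971) and rose by 1.72 in TLX+siTLX over TLX+siCTL (adjusted p = 0.000527), close to the floor of the table. Its symbol is on 2 rows, so its values are uncertain. FOXO1, a transcription factor that acts on BCL2L11, is also named after its values were seen. It was at 3.04, 3.36 and 4.34 mean log2 CPM and fell by 1.30 in TLX+siTLX over CTL+siCTL (adjusted p = 9.69e-07). FOXO3, of the same list, did not pass there (0.19, adjusted p = 0.121) and rose by 0.36 in TLX+siCTL over CTL+siCTL (adjusted p = 0.0095). BCL2L11 did not pass in TLX+siTLX over CTL+siCTL (adjusted p = 0.57). The part of FOXO1 or FOXO3 in its values was not tested.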
